A study of Mus musculus with 6 samples.

Results

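The histone genes of mouse primary oligodendrocyte precursor cells (mOPCs) are described here in 6 poly-A-selected RNA-seq libraries, 3 from cells given control siRNA (siNC) and 3 from cells given siRNA against Qk (siQk). Qk encodes the Qki RNA-binding proteins, and mOPCs are the precursors of the myelin-forming oligodendrocytes of the central nervous system. Members were the genes whose symbol in the deposited files starts with Hist1h to Hist4h (replication-dependent genes) or with H2af, H3f3 or H1f (replacement and other variant genes), which gave 78 of 23038 genes, 64 replication-dependent and 14 variant. Of the 64, 51 lie on chromosome 13, 9 on chromosome 3, 3 on chromosome 11 and 1 on chromosome 6. GENCODE M21 lists 2 members, Hist3h2bb-ps and H2afy3, as processed pseudogenes. Cells of both groups were collected 72 h after transfection. The siQk libraries used 3 different siRNAs, and which library received which siRNA and the mouse strain are not given in the sources used here. The cells of all 6 libraries were isolated by immunopanning from embryos at E14.5. The groups are bulk cultures with a reduced, not deleted, transcript: Qk was at 209, 206 and 163 RPKM across the siNC replicates, against 51.3, 76.6 and 36.2 across siQk, with a log2 fold change of -1.98 (SE 0.28, edgeR adjusted p = 0.00311). OPC markers were present in all 6 libraries, with Olig2 between 124 and 251 RPKM and Cspg4 between 1.69 and 4.89 RPKM. Genes of mature oligodendrocytes were present as well, with Mbp at 86.5 to 233 RPKM in siNC and 18.2 to 78.0 RPKM in siQk.

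Nucleosomes wrap DNA around a core of H2A, H2B, H3 and H4, and linker H1 binds where DNA enters and leaves. Replication-dependent histone genes lie in clusters, mostly lack introns and are transcribed in S phase, and their mRNAs usually end in a stem-loop bound by SLBP in place of a poly-A tail. Variant histone genes lie apart from the clusters, often carry introns, make polyadenylated mRNAs and are used throughout the cell cycle. A poly-A library therefore samples the classes differently: replication-dependent mRNAs that end at the stem-loop are not captured by their 3′ end, whereas polyadenylated forms of the same genes are.

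The stem-loop is shown first because it marks the class and bears on capture by a poly-A tail. It was searched in annotated transcripts of GENCODE M21 (GRCm38, the assembly of mm10) within 150 bases after the stop codon. Of 45 replication-dependent genes with at least 60 annotated bases after the stop codon, 42 held it, against 50 of 21901 protein-coding genes (0.228%). Of 12 variant genes with that much sequence, H2afx alone held it. A gene is said to fall or rise where edgeR gave a raw P below 0.01 and a Benjamini-Hochberg adjusted p below 0.1, which held for 31.0% of all genes tested, 13.8% higher and 17.2% lower in siQk. The lines give 26 bases with the 16-base stem and loop in capitals, for the 8 replication-dependent genes that fell in siQk, then for H2afx, which rose, and for Hist3h2a and Hist3h2ba, which were abundant and not called.
Hist2h3c1: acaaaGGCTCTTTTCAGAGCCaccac
Hist1h1e: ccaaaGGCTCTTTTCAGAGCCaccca
Hist1h4h: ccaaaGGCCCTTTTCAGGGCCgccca
Hist1h2be: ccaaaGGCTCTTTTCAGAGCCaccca
Hist1h2ac: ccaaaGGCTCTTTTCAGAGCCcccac
Hist1h1c: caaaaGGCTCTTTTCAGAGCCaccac
Hist1h2bg: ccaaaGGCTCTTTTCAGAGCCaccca
Hist2h2aa1: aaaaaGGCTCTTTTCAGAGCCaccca
H2afx: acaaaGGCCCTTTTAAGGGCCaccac
Hist3h2a: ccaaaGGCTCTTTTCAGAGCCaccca
Hist3h2ba: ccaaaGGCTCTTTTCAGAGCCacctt

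The 16-base element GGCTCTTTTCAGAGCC was the commonest form, in 23 of the 44 members with a stem-loop, and it occurred in H1, H2A, H2B and H3 genes. H4 genes carried forms with another stem, of which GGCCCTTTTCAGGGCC was in 7. The element began 22 to 59 bases after the stop codon. All of the replication-dependent genes that fell except Hist1h4h held the commonest form, as did Hist3h2a and Hist3h2ba, which were abundant and not called. Hist1h2bc and Hist1h4i were also above 40 RPKM and not called, and neither held that form. Hist1h2bc had no stem-loop, and Hist1h4i had a stem-loop of another form. Of the 21 replication-dependent genes that entered the test, 16 held the stem-loop and 8 of these fell, beside 17.2% of all genes tested that fell. None of the other 5 was called. Of these, Hist1h3i, Hist1h4k and Hist2h2bb have 0 annotated bases after the stop codon, so no stem-loop could be found there. These counts are small and carry no test. Hist1h2bc, Hist1h2bq and Hist2h2be had at least 60 annotated bases after the stop codon and no stem-loop. The poly-A signal letters AATAAA stood in the last 50 bases of the annotated transcript for 13 of 45 replication-dependent genes and 9 of 12 variant genes, beside 68.2% of all protein-coding genes. Among the tested replication-dependent genes, 2 of 6 with AATAAA fell and 6 of 15 without it, beside the same 17.2%. The 15 include Hist1h3i, Hist1h4k and Hist2h2bb, where no sequence after the stop codon was annotated to search.

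Nearly every histone gene carried tags. At least 1 tag (an estimated count, rounded) was found in at least 1 library for 76 of 78 genes, 63 replication-dependent and 13 variant, against 83.4% of all genes in the files. Hist1h2aa, an H2A gene, and H1fnt, a linker variant of spermatids, had no tag in any library. Tags were present in all 6 libraries for 71 genes, and each library covered 72 to 75. Most replication-dependent genes were low. Of 64, 34 reached a mean of 1 RPKM in a group, and 8 reached 10 RPKM. The counts for variant genes were 10 and 10 of 14. RPKM divides the tag number by exon length and library total, so it compares levels between genes.

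Fewer genes with a short model entered the test, whose filter is on CPM, a value that rises with model length. For 29 replication-dependent genes the files use an exon length of at most 450 bases, which leaves little beyond the coding sequence, and 3 of these entered the test, with a highest mean of 10.1 RPKM. Of the 35 genes with a longer model, 18 entered the test and the highest mean was 97.0 RPKM. Median levels per length were 0.76 RPKM for the short and 1.29 RPKM for the longer models. The tested genes had a median of 430.0 annotated bases after the stop codon and the other matched replication-dependent genes a median of 76. Reads beyond a short model are not counted, and what part this had in the low levels was not tested.

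As shares of library totals, tags on replication-dependent genes were fewer in siQk, and tags on variant genes were more. The replication-dependent genes together took 487, 551 and 691 CPM (tags scaled to library totals, as tags-per-million) in siNC (576 ± 104, SD, n = 3) and 471, 368 and 430 in siQk (423 ± 51.9, SD, n = 3), with no overlap between the groups. The variant genes took 1432, 1477 and 1469 CPM in siNC (1459 ± 24.3, SD, n = 3) and 1739, 1719 and 1642 in siQk (1700 ± 51.4, SD, n = 3), also with no overlap. The sum over both classes overlapped, at 1919 to 2160 in siNC and 2072 to 2210 in siQk. These sums are descriptions and carry no test, and TMM factors were not applied to them. The log2 ratio of group means was 0.22 for variant and -0.45 for replication-dependent genes. Under library-size scaling the median log2 fold change of all genes tested was 0.16. On that scaling the siQk range lay above siNC for 41.9% of all genes tested and below for 16.4%. In bulk libraries, fewer cells that express a gene and less of its RNA in each cell cannot be told apart.

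**Figure D1:**
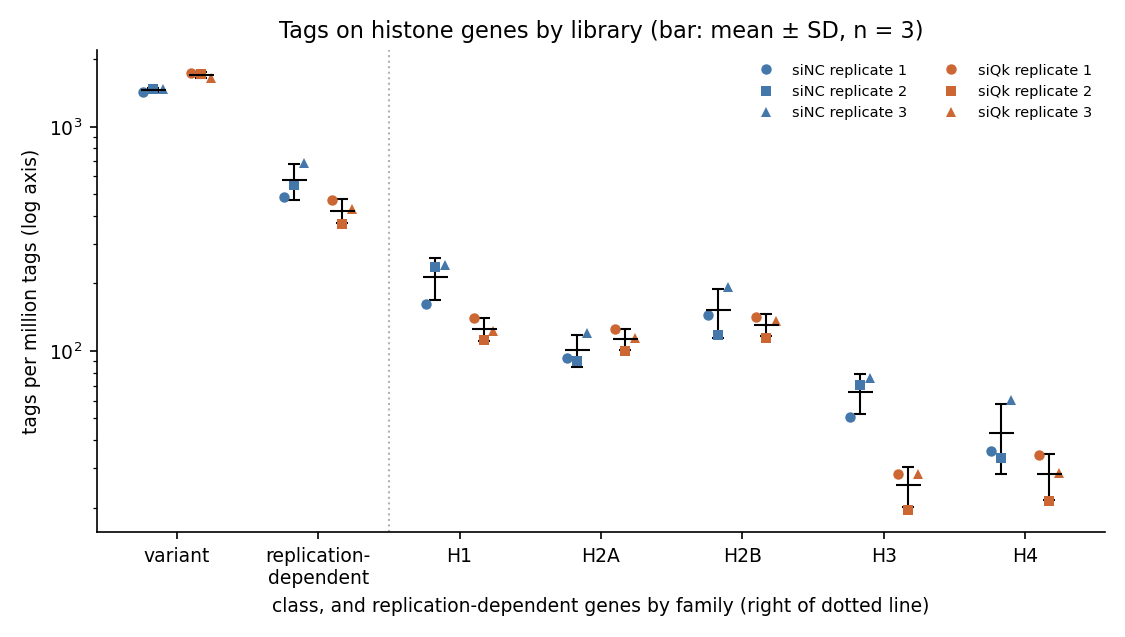
CPM (tags scaled to library totals, log axis) for variant genes, for replication-dependent genes and for each replication-dependent family; each point is a library, bars are the mean ± SD of 3 libraries, and blue is siNC and orange siQk. H3 shows the widest gap, 50.5 to 75.4 in siNC against 19.4 to 28.3 in siQk, while H2A and H2B overlap between the groups.

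Families differed in how far their sums moved. H3 went from a mean of 65.6 to 25.3 CPM and H1 from 214 to 125, with no overlap between libraries of either family. H4 went from 43.2 to 28.1, where the highest siQk library (34.4) lay above the lowest siNC library (33.4). H2B (152 and 131) and H2A (101 and 113) overlapped as well. Few genes carried these sums: Hist1h1c, Hist3h2a, Hist1h2bc, Hist3h2ba and Hist2h3c1 took 75.9% of all replication-dependent tags. The other 59 genes took 112, 116 and 200 CPM in siNC and 110, 76.4 and 98.3 in siQk, so that siNC replicate 3 stood far above the other 5 libraries.

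The test across genes covered 12505 genes with an average logCPM over 0, among them 31 histone genes (10 variant and 21 replication-dependent). Of the histone genes 12 were called, against a background of 31.0%. Among variant genes 4 of 10 rose and 0 fell, and among replication-dependent genes 0 of 21 rose and 8 fell. At an unadjusted p below 0.05 in edgeR, 5 variant genes were higher and 0 lower, and 0 replication-dependent genes were higher and 11 lower. No count over all genes was made at that p. DESeq2 called 5 variant genes higher and 0 lower, and 0 replication-dependent genes higher and 10 lower. Library-size scaling alone gave 6 higher and 0 lower variant genes and 1 higher (Hist3h2a) and 5 lower replication-dependent genes. Over all 12505 genes tested, DESeq2 called 4894 and library-size scaling 4354, beside 3879 in the main fit. The DESeq2 and library-size totals were not split by direction. Median log2 fold changes were 0.31 for the variant and -0.76 for the replication-dependent genes that were tested, beside 0.01 for all genes tested, and 19 of the 21 replication-dependent values lay below 0. The shares of 38.1% lower and 40% higher stand above the backgrounds of 17.2% and 13.8%, rest on few genes and carry no test.

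Fold changes are siQk over siNC after TMM scaling, with factors of 0.899, 0.963 and 0.987 for siNC and 1.05, 1.07 and 1.04 for siQk. An RPKM ratio near 1 is a log2 fold change slightly below 0. Across the 21 tested replication-dependent genes, 5 share over 50% of their 75-base stretches of annotated transcript with a gene elsewhere. Their tag numbers carry no decimals, and how reads that match several copies were counted was not tested. Annotated exons of 7 of these 21 genes and of 7 of the 10 tested variant genes overlap those of another gene on either strand, and the kit does not mark strand. Replication-dependent values depended on single libraries: after scaling, siNC replicate 3 was the highest of the 6 libraries for 18 of the 21 tested genes, against 15.9% of genes with a mean log2 CPM over 0, and siQk replicate 2 was the lowest for 17. The oligodendrocyte genes Mbp, Mog and Mag together summed to 148 RPKM in siNC replicate 3 against 406 and 436 in the other siNC libraries. Without siNC replicate 3, without siQk replicate 2 or without siQk replicate 3, 4 replication-dependent genes fell in each case, and Hist2h3c1, Hist1h1c and Hist1h1e were among them each time. In these fits 3704, 2692 and 3010 of all genes were called in either direction, in that order, beside 3879 with all libraries.

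**Figure D2:**
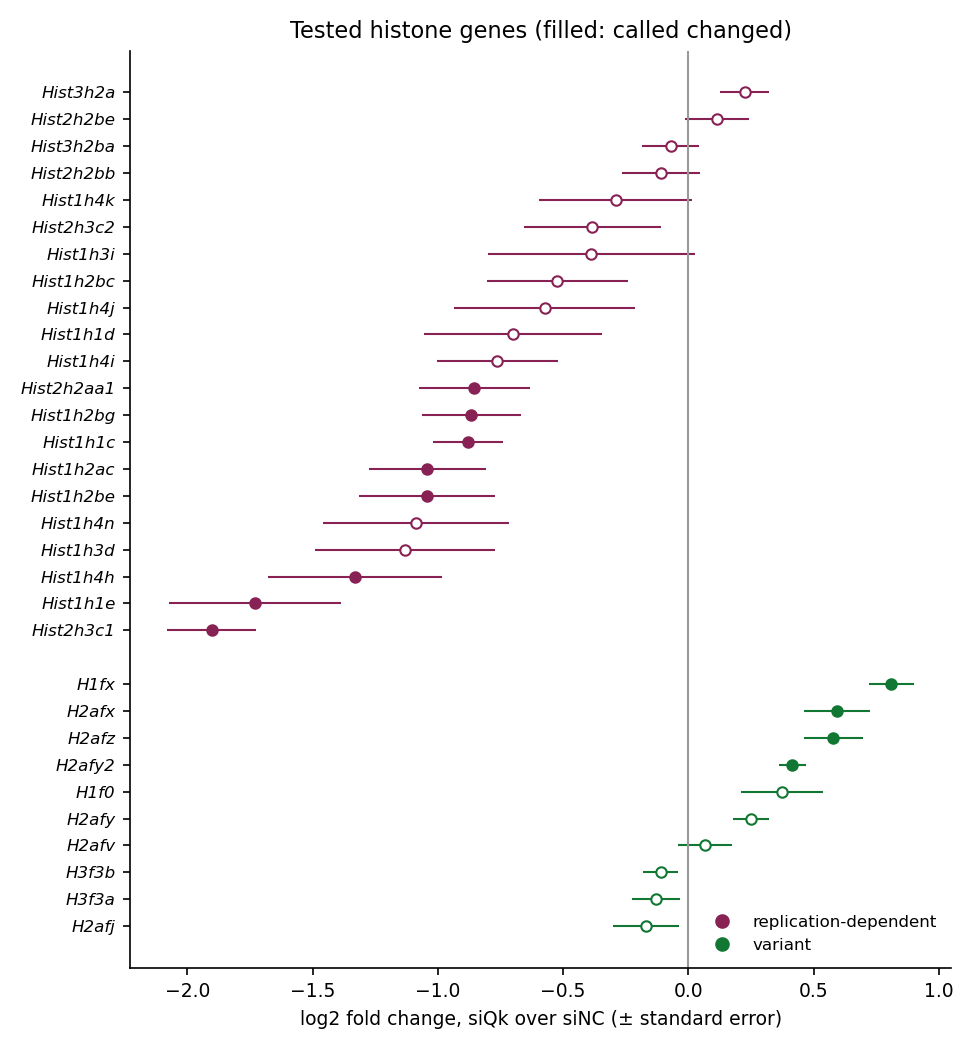
Log2 fold change (siQk over siNC, ± standard error) of the 31 tested histone genes, with filled points for genes called changed. The 8 filled replication-dependent genes run from -1.90 to -0.86 and the 4 filled variant genes from 0.42 to 0.81.

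Of the linker genes, 2 replication-dependent genes fell and the variant H1fx rose. Hist1h1c, the most abundant of the replication-dependent linker genes, was at 93.7, 140.0 and 130.3 RPKM across the siNC replicates, against 81.5, 66.0 and 70.8 across siQk. The groups did not overlap, and siQk averaged 60% of siNC, with a log2 fold change of -0.88 (SE 0.14, edgeR adjusted p = 0.00473). It lies at chr13:23738808-23740367 in the large cluster on chromosome 13 and took 84.0% to 91.9% of the replication-dependent H1 tags of a library. Hist1h1e, another somatic linker histone, was at 5.27, 6.35 and 12.7 RPKM across the siNC replicates, against 3.20, 1.93 and 2.88 across siQk, a log2 fold change of -1.73 (SE 0.34, edgeR adjusted p = 0.00997). Its siNC replicate 3 stood at 12.7 RPKM, and the other siNC libraries still lay above every siQk library. Hist1h1d was at 2.50 ± 1.41 RPKM over the siNC libraries and 1.69 ± 0.274 RPKM over siQk (SD, n = 3 each), and its groups overlapped, at -0.70 (SE 0.36, edgeR adjusted p = 0.159).

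The variant linker gene H1fx rose. It was at 11.2, 13.1 and 13.9 RPKM across the siNC replicates, against 25.9, 25.6 and 22.5 across siQk, with no overlap, siQk averaging 195% of siNC, and a log2 fold change of 0.81 (SE 0.091, edgeR adjusted p = 0.00159). H1f0, a linker variant tied to differentiated cells, was at 67.2, 46.4 and 69.3 RPKM across the siNC replicates, against 95.0, 83.6 and 85.0 across siQk. Its groups did not overlap in RPKM, yet the gene was not called, at 0.37 (SE 0.16, edgeR adjusted p = 0.113). Under library-size scaling alone it was called at 0.53. By mean level H1f0 came after Hist1h1c in siNC (61.0 and 121 RPKM) and before it in siQk (87.9 and 72.8 RPKM).

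The upstream sequences of linker and core genes carry different short motifs, and those of 3 genes that fell are printed, 250 bases up to the transcription start from RefSeq on GRCm38.p6, 5′ to 3′ on the strand of the gene. Capitals mark matches on either strand to CCAAT, to TATAAA, to the octamer ATTTGCAT and to the linker histone box AAACACA.
Hist1h1c (chr13:23738557-23738806, plus strand): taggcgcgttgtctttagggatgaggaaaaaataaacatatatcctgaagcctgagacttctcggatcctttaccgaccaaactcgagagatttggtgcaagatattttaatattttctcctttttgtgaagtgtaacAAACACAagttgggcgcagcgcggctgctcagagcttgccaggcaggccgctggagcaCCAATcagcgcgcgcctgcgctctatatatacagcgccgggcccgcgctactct
Hist1h1e (chr13:23622559-23622808, minus strand): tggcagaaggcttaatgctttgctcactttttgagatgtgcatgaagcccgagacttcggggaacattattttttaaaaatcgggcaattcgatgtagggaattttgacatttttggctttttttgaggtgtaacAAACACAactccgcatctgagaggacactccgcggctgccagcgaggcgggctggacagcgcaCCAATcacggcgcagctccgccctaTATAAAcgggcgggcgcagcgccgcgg
Hist1h2bg (chr13:23571150-23571399, plus strand): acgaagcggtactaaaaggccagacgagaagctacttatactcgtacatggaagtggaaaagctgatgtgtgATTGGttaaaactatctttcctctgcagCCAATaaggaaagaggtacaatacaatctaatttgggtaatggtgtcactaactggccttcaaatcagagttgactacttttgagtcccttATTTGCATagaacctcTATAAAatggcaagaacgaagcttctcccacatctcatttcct

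Over windows of 300 bases (250 before to 50 after the start), 70 of 78 members had a RefSeq entry. AAACACA was present for 5 of 6 replication-dependent H1 genes and 7.14% of all 27025 windows. The octamer was present for 7 of 15 H2A and 6 of 15 H2B genes, for none of the H1, H3 and H4 genes, and for 1.75% of all windows. CCAAT stood in 84.5% of replication-dependent windows against 37.9% of all, with H4 genes at 3 of 12, and TATAAA in 58.6% against 14.2%. A match of letters is a description and not a binding site. The chromosome 13 cluster also holds 8 pairs of H2A and H2B genes that start 162 to 279 bases apart in opposite directions, and Hist1h2bg pairs with Hist1h2ae, which was under the filter, at -0.45 (SE 0.34, edgeR adjusted p = 0.379) without it.

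H2A genes split between a few that fell, abundant Hist3h2a that was not called, and variants that rose. Hist1h2ac was at 6.46, 6.37 and 11.7 RPKM across the siNC replicates, against 4.77, 3.82 and 4.52 across siQk, with no overlap, and its log2 fold change was -1.04 (SE 0.23, edgeR adjusted p = 0.015). It was no longer called without siQk replicate 2 or without siQk replicate 3 (-0.73 to -1.20 over the 6 libraries left out in turn). Hist2h2aa1 was low, at 2.32, 2.94 and 3.80 RPKM across the siNC replicates, against 2.04, 1.51 and 1.98 across siQk, with a log2 fold change of -0.86 (SE 0.22, edgeR adjusted p = 0.0244). Its call was lost in 7 of 13 alternatives, the omission of any 1 library other than siNC replicate 1 included, and 88.7% of its 75-base stretches also occur in another gene. Hist3h2a, from the small cluster on chromosome 11 and the highest of the replication-dependent H2A genes, was at 36.3, 34.9 and 41.7 RPKM across the siNC replicates, against 53.5, 43.6 and 49.2 across siQk. In RPKM its siQk libraries lay above siNC, and after TMM scaling it was not called, at 0.22 (SE 0.10, edgeR adjusted p = 0.114), while library-size scaling alone called it at 0.37. Its exons overlap those of Trim17 on the same strand.

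Among H2A variants, H2afz, H2afx and H2afy2 rose. H2afz, which encodes H2A.Z, a variant placed at promoters by exchange complexes, was at 21.7, 22.0 and 18.6 RPKM across the siNC replicates, against 37.5, 35.2 and 30.9 across siQk, with a log2 fold change of 0.58 (SE 0.12, edgeR adjusted p = 0.0111). Of its 75-base stretches 27.6% occur in another gene. H2afx, which encodes H2A.X, the variant phosphorylated at DNA breaks, was at 18.5, 22.6 and 22.2 RPKM across the siNC replicates, against 40.5, 36.9 and 28.5 across siQk, and its log2 fold change was 0.59 (SE 0.13, edgeR adjusted p = 0.015). Its groups did not overlap, siQk averaging 167% of siNC, but the call was lost without siNC replicate 1, siQk replicate 1 or siQk replicate 2 (0.48 to 0.72 over the libraries left out in turn). H2afy2, which encodes macroH2A2, was at 39.3, 43.4 and 43.0 RPKM across the siNC replicates, against 61.9, 64.4 and 59.7 across siQk, with a log2 fold change of 0.42 (SE 0.053, edgeR adjusted p = 0.00238). Of the variants that rose, H2afx is the one with the stem-loop and no AATAAA in its last 50 annotated bases.

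H2afy, which encodes macroH2A1, was at 33.5, 37.3 and 33.0 RPKM across the siNC replicates, against 45.9, 47.0 and 44.1 across siQk. The groups did not overlap, and the log2 fold change of 0.25 (SE 0.073, edgeR adjusted p = 0.0351) missed a call on a raw P of 0.0113. It was called in 6 of 14 alternatives, DESeq2 and the fit without a filter included. H2afv, a second H2A.Z gene, was at 55.2 ± 6.84 RPKM over the siNC libraries and 64.2 ± 4.52 RPKM over siQk (SD, n = 3 each), with a log2 fold change of 0.067 (SE 0.11, edgeR adjusted p = 0.652), and H2afj at 20.7 ± 1.27 RPKM over the siNC libraries and 20.4 ± 3.33 RPKM over siQk (SD, n = 3 each), at -0.17 (SE 0.13, edgeR adjusted p = 0.346). Neither was called under any of 14 alternatives, and H2afv changed sign (-0.040) without siNC replicate 2. H2afy, H2afy2 and H2afv are the members whose tag numbers carry decimals, so their counts were shared out by the authors' estimate.

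**Figure D3:**
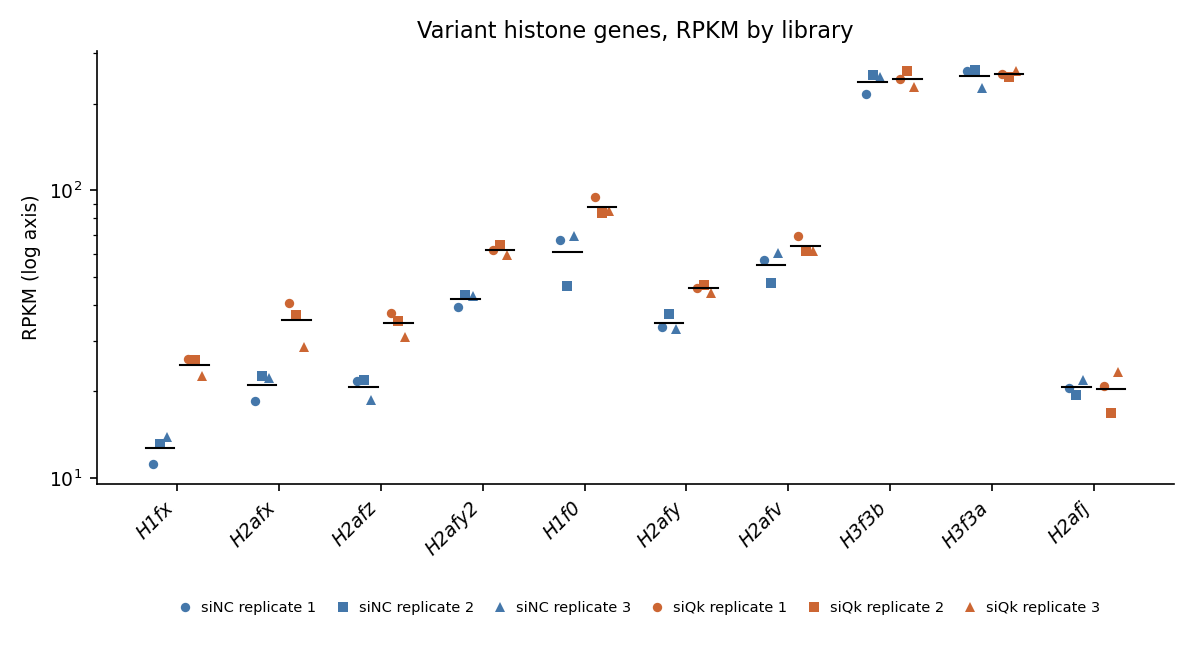
RPKM (log axis) of the 10 tested variant genes in each library, ordered by log2 fold change; black lines are group means, blue is siNC and orange siQk. H1fx, H2afx, H2afz and H2afy2 have all 3 siQk libraries above all 3 siNC libraries, and H3f3a, H3f3b and H2afj overlap.

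The highest H2B genes in RPKM were Hist1h2bc and Hist3h2ba, and neither was called. Hist1h2bc was at 108, 58.0 and 129 RPKM across the siNC replicates, against 85.0, 63.6 and 78.7 across siQk. Its siNC libraries ran from 58.0 to 129 RPKM and enclosed all siQk libraries, at a log2 fold change of -0.52 (SE 0.28, edgeR adjusted p = 0.182). Without siNC replicate 2, the low siNC library, the gene was called at -0.80. Hist3h2ba was at 58.8, 70.8 and 84.5 RPKM across the siNC replicates, against 78.1, 68.9 and 78.3 across siQk, a log2 fold change of -0.071 (SE 0.11, edgeR adjusted p = 0.648) with an overlap, and its sign changed under library-size scaling (0.073) and without siNC replicate 3 (0.038).

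Lower H2B genes fell. Hist1h2be was at 4.17, 4.84 and 7.95 RPKM across the siNC replicates, against 3.64, 2.19 and 3.22 across siQk, with a log2 fold change of -1.04 (SE 0.27, edgeR adjusted p = 0.0251). Its call was lost without siNC replicate 2 or 3 and without siQk replicate 2 or 3 (-0.75 to -1.20). The annotated span of Hist1h2be (chr13:23583670-23621124) has exons over those of Hist1h1e (chr13:23620629-23622558) on the same strand, so that their tags cannot be told apart there. Hist1h2bg was at 6.01, 6.10 and 8.53 RPKM across the siNC replicates, against 5.04, 3.60 and 3.88 across siQk, with a log2 fold change of -0.87 (SE 0.20, edgeR adjusted p = 0.0161). The call was lost without siNC replicate 3, siQk replicate 2 or siQk replicate 3, and 47.4% of its 75-base stretches occur in another gene. Hist2h2be was at 4.11 ± 0.764 RPKM over the siNC libraries and 4.94 ± 0.154 RPKM over siQk (SD, n = 3 each), with an overlap and a log2 fold change of 0.12 (SE 0.13, edgeR adjusted p = 0.506), and Hist2h2bb at 8.07 ± 1.21 RPKM over the siNC libraries and 8.28 ± 1.05 RPKM over siQk (SD, n = 3 each), at -0.11 (SE 0.16, edgeR adjusted p = 0.61).

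Hist2h3c1, an H3 gene of the small cluster on chromosome 3 (chr3:96246685-96248509), had the lowest log2 fold change of the tested members. It was at 22.8, 33.3 and 32.1 RPKM across the siNC replicates, against 9.38, 6.88 and 9.76 across siQk. No siQk library came near the siNC range, siQk averaged 29.5% of siNC, and the log2 fold change was -1.90 (SE 0.18, edgeR adjusted p = 0.000943), between -2.02 and -1.75 in all 14 alternatives and called in each. It took 77.7% to 85.9% of the replication-dependent H3 tags in siNC and 60.6% to 64.6% in siQk. The H3 genes without it took 8.97, 9.99 and 16.8 CPM in siNC and 11.1, 6.89 and 10.4 in siQk, which overlapped. Of its 75-base stretches, 100% occur in another gene and 33.8% in a gene elsewhere in the genome. Gm20634, a gene model on the same strand, overlaps its exons, and their tags cannot be told apart there. Hist2h3c2, a neighbouring H3 gene, was at 5.80 ± 1.97 RPKM over the siNC libraries and 4.90 ± 1.21 RPKM over siQk (SD, n = 3 each) with an overlap, at a log2 fold change of -0.38 (SE 0.27, edgeR adjusted p = 0.303).

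The other tested H3 genes were low, and Hist1h3i overlapped between the groups at 2.41 ± 1.32 RPKM over the siNC libraries and 2.03 ± 0.510 RPKM over siQk (SD, n = 3 each), with a log2 fold change of -0.39 (SE 0.41, edgeR adjusted p = 0.487). Hist1h3d was at 0.938, 0.907 and 1.72 RPKM across the siNC replicates, against 0.806, 0.368 and 0.608 across siQk, without overlap, and was not called, at -1.13 (SE 0.36, edgeR adjusted p = 0.0461) with a raw P of 0.0166. H3f3a and H3f3b encode the replacement histone H3.3, which is deposited by HIRA and by DAXX with ATRX, and they were the highest histone genes in RPKM. H3f3a was at 261, 261 and 227 RPKM across the siNC replicates, against 255, 248 and 259.6 across siQk, with a log2 fold change of -0.13 (SE 0.10, edgeR adjusted p = 0.322). H3f3b was at 217, 252 and 247 RPKM across the siNC replicates, against 245, 261 and 229 across siQk, with a log2 fold change of -0.11 (SE 0.071, edgeR adjusted p = 0.257). The groups overlapped for both, neither was called, and both signs turned under library-size scaling (0.026 and 0.039). For each tag on a replication-dependent H3 gene the H3.3 genes had 11.2 to 16.4 tags in siNC and 30.4 to 46.5 in siQk. Most of these replication-dependent H3 tags were on Hist2h3c1 (77.7% to 85.9% in siNC and 60.6% to 64.6% in siQk). The H3 tags outside Hist2h3c1 overlapped between the groups, at 8.97 to 16.8 CPM in siNC and 6.89 to 11.1 in siQk. Poly-A libraries sample the classes differently, so this is a ratio of captured tags.

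Hist1h4i was the highest of the H4 genes in RPKM, at 44.7, 43.0 and 71.6 RPKM across the siNC replicates, against 42.2, 25.7 and 35.7 across siQk. Its groups were separate by a small margin (42.2 against 43.0 RPKM), and it was not called, at -0.76 (SE 0.24, edgeR adjusted p = 0.0461) with a raw P of 0.0165. It was called by DESeq2, with the replicate block, and at an adjusted p below 0.05 alone. Hist1h4h was at 9.68, 8.97 and 19.8 RPKM across the siNC replicates, against 6.70, 3.90 and 6.20 across siQk, with no overlap and a log2 fold change of -1.33 (SE 0.35, edgeR adjusted p = 0.0251). It lost its call without siNC replicate 3 and without any 1 of the siQk replicates (-0.90 to -1.54), and 42.4% of its 75-base stretches occur in another gene. The other 3 tested H4 genes had log2 fold changes of -1.09 (Hist1h4n), -0.57 (Hist1h4j) and -0.29 (Hist1h4k), none called.

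**Figure D4:**
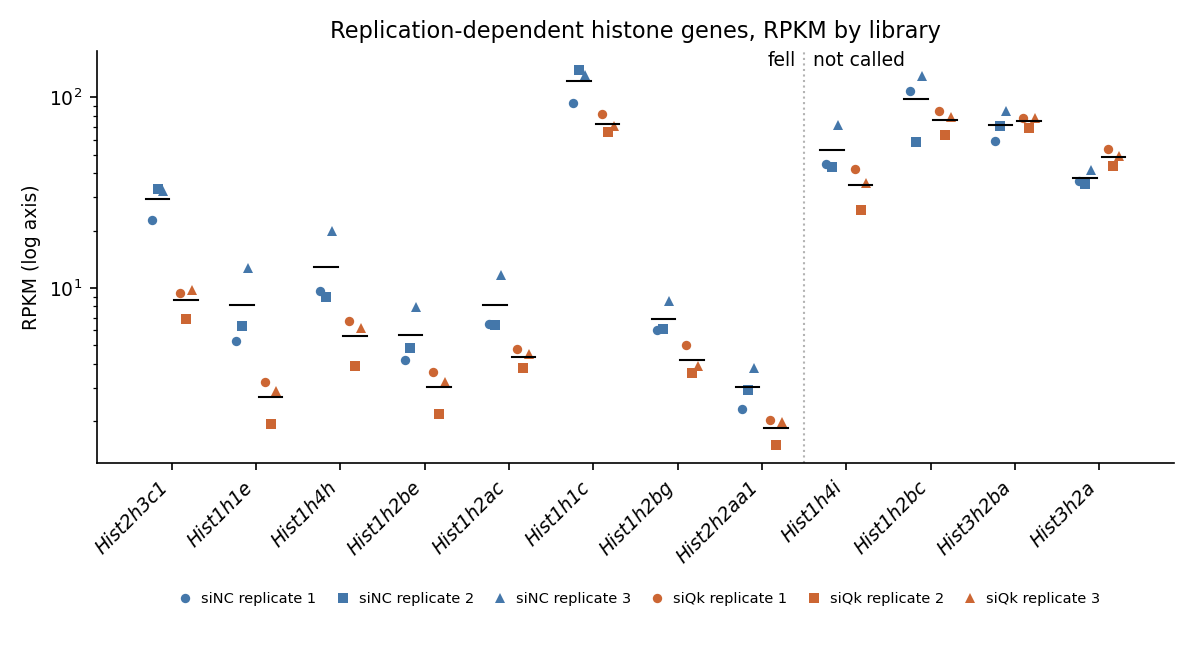
RPKM (log axis) by library for the 8 replication-dependent genes that fell, ordered by log2 fold change, and to the right of the dotted line for the 4 genes above 40 RPKM that were not called; black lines are group means, blue is siNC and orange siQk. In all 8 the 3 siQk libraries lie below the 3 siNC libraries, and the triangle of siNC replicate 3 is the top point in 6 of them.

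RPKM ranges of the groups were separate for 12 of 21 tested replication-dependent genes, 11 with siQk below and 1 (Hist3h2a) with siQk above, and for 7 of 10 variant genes, all with siQk above. Over all genes tested the ranges, on library-size scaling, were separate for 58.3%, with siQk above for 41.9% and below for 16.4%. The 7 of 10 variant genes are read against 41.9%, and the 11 of 21 replication-dependent genes against 16.4%.

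Members with tags but below the filter were 42 replication-dependent and 3 variant genes, the latter at a mean of at most 0.30 RPKM over the 6 libraries. By family the highest of the replication-dependent ones were Hist1h1a (1.29 RPKM), Hist2h2ab (2.06), Hist1h2bn (2.41), Hist1h3e (2.25) and Hist1h4d (1.01). Family medians lay between 0.42 and 0.74 RPKM, with Hist1h2aa, which had no tag, counted among the H2A genes. In a fit without the filter, 23.4% of 19223 genes were called, 11.0% higher and 12.4% lower. Of 63 replication-dependent genes 11 fell and 0 rose, and 46 of the 63 values lay below 0. At an unadjusted p below 0.05 in edgeR, 19 were lower and 1 higher, and all genes were not counted at that p. The 3 that this fit added were H2B genes. Hist1h2bn, at 3.38, 3.15 and 4.15 RPKM across the siNC replicates, against 1.40, 0.952 and 1.45 across siQk, had a log2 fold change of -1.60 (SE 0.25, edgeR adjusted p = 0.00306). Hist1h2bj and Hist1h2bm had log2 fold changes of -1.48 (SE 0.35, edgeR adjusted p = 0.0167) and -1.29 (SE 0.38, edgeR adjusted p = 0.0413). Of 42 genes under the filter only these 3 were called (7.14%), a share below the background. RPKM ranges had siQk below siNC for 5 of 12 H2B genes under the filter, for 1 of 8 H3 genes and for none of the H1, H2A and H4 genes. The share of separate ranges over all genes under the filter was not computed, so these counts have no background. Among 13 variant genes 5 rose, H2afy being added, and H2afy3, H1foo and H2afb1 were not called.

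Genes that act on histones were set beside them in lists of known function. Of 20 tested genes for histone mRNA processing and transcription, 3 rose and 1 fell (median log2 fold change 0.076). These shares of 15% and 5% stand beside 13.8% and 17.2% of all genes tested, and the 20% called lies below the background of 31.0%. Slbp, which encodes the protein that binds the stem-loop, was at 13.0, 11.7 and 12.5 RPKM across the siNC replicates, against 23.3, 22.2 and 20.8 across siQk. The groups did not overlap, and the log2 fold change was 0.68 (SE 0.09, edgeR adjusted p = 0.00267). Lsm11, of the U7 particle that helps to cut the pre-mRNA after the stem-loop, rose with a log2 fold change of 0.60 (SE 0.14, edgeR adjusted p = 0.0188), and Srrt, a partner of the cap-binding complex, with 0.29 (SE 0.061, edgeR adjusted p = 0.0122). Lsm11 lost its call with any 1 library left out other than siQk replicate 3, and without siQk replicate 1 or 2 only 1 gene of the list, Slbp, rose. Cstf2, a subunit of the cleavage stimulation factor, was at 30.1, 25.9 and 32.5 RPKM across the siNC replicates, against 18.9, 20.9 and 18.6 across siQk, and its log2 fold change was -0.75 (SE 0.10, edgeR adjusted p = 0.00247). Npat, the coactivator of histone gene transcription, was not called, at -0.25 (SE 0.073, edgeR adjusted p = 0.0344) with a raw P of 0.011.

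Among 29 tested genes for histone chaperones and deposition, 11 rose and 0 fell in edgeR (median log2 fold change 0.26), which is 37.9% higher beside 13.8% of all genes tested, and none lower beside 17.2%. At an unadjusted p below 0.05 in edgeR, 18 were higher and 3 lower, and all genes were not counted at that p. DESeq2, which called 4894 of all genes tested (not split by direction), called 15 higher and 3 lower. Cenpa, the centromeric H3 variant, was at 4.56, 4.16 and 4.20 RPKM across the siNC replicates, against 24.1, 20.2 and 13.2 across siQk, with a log2 fold change of 2.0 (SE 0.22, edgeR adjusted p = 0.00152). Hjurp, its chaperone, had a log2 fold change of 0.79 (SE 0.15, edgeR adjusted p = 0.00799). Asf1b, a chaperone of newly made H3 and H4, was at 2.15, 1.82 and 2.05 RPKM across the siNC replicates, against 7.42, 5.91 and 4.39 across siQk, with a log2 fold change of 1.41 (SE 0.21, edgeR adjusted p = 0.00395). Npm3, of the nucleoplasmin family, had a log2 fold change of 0.79 (SE 0.085, edgeR adjusted p = 0.00142). Chaf1b, a subunit of the CAF-1 complex that acts at replication forks, was not called at 0.95 (SE 0.28, edgeR adjusted p = 0.0355), and neither were Hira at 0.11 (SE 0.05, edgeR adjusted p = 0.121) and Daxx at 0.17 (SE 0.067, edgeR adjusted p = 0.0885).

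The S phase list held genes of DNA replication and of cycling cells. Of 22 tested, 12 rose and 0 fell in edgeR (median log2 fold change 0.70), with 16 and 0 at an unadjusted p below 0.05. All genes were not counted at that p. DESeq2, which called 4894 of all genes tested (not split by direction), called 15 higher and 0 lower. The 54.5% that rose stand beside 13.8% of all genes tested, and the 0 that fell beside 17.2%. Mki67, a marker of cycling cells, was at 3.17, 3.09 and 2.65 RPKM across the siNC replicates, against 13.7, 12.2 and 7.14 across siQk. Its log2 fold change was 1.73 (SE 0.24, edgeR adjusted p = 0.00306), beside 1.54 for Top2a, 1.26 for Mcm5, 1.18 for Cdc45 and 1.15 for Cdt1. These 5 genes all rose.

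**Figure D5:**
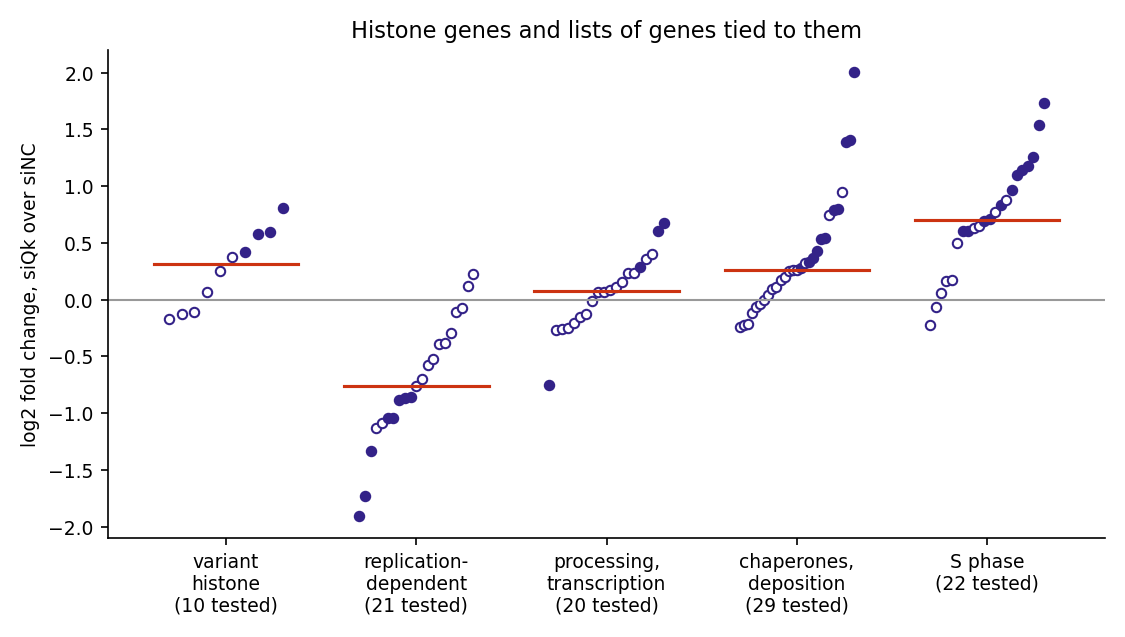
Log2 fold change (siQk over siNC) of each tested gene of both histone classes and of 3 lists, sorted within a class, with filled points for genes called changed and red lines for medians. The medians are 0.31 for variant, -0.76 for replication-dependent, 0.076 for processing and transcription, 0.26 for chaperone and deposition, and 0.70 for S phase genes.

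Some cell type markers moved with the groups. The summed RPKM of 3 oligodendrocyte genes (Mbp, Mog and Mag) was 436, 406 and 148 in siNC and 61.2, 39.7 and 137 in siQk, with no overlap of the sums. Mog alone overlapped, and its siNC replicate 3, at 5.85 RPKM, lay below the siQk libraries, at 12.5, 5.89 and 19.2. That of 4 astrocyte genes was 59.7 to 108 in siNC and 10.9 to 13.6 in siQk, of which Gfap was 51.4 to 101 and 9.08 to 11.3, Gja1 was at or near 0 and Aqp4 at most 0.53. The 5 OPC genes summed to 639 to 646 in siNC and 840 to 998 in siQk. Olig1, Olig2 and Cspg4 were higher in siQk without overlap. Pdgfra (71.1 to 94.1 in siNC and 76.3 to 118 in siQk) and Sox10 (141 to 174 and 168 to 184) overlapped. The 4 neuron genes summed to 99.4 to 169 and 74.7 to 114, mostly Tubb3, with Stmn2 at most 0.044 RPKM. Against the sum, Snap25 was 0.64 to 0.89 RPKM in siNC and 3.35 to 7.57 in siQk, and Syt1 was 1.08 to 2.39 and 2.89 to 3.56. Microglia genes summed to at most 0.15 RPKM and fibroblast and vascular genes to at most 0.30, with Cldn5 at 0 throughout. By share of tags on replication-dependent genes, siNC replicate 3 was the highest library (691 CPM). It also had the lowest oligodendrocyte sum and the highest astrocyte sum of the siNC libraries. After scaling it was the highest library for 0 of the 10 tested variant genes. In siQk, replicate 2 had both the lowest replication-dependent share (368 CPM) and the lowest sum of Mbp, Mog and Mag (39.7 RPKM). What part the make-up of the cultures had in the histone values was not tested.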

How the data were processed

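The libraries of mOPCs, 3 siNC and 3 siQk, were grouped by the titles of the samples. The authors made poly-A libraries with a TruSeq kit that does not mark strand, used OLego for alignment to mm10 and Quantas for gene-level quantification. Tool versions and the gene annotation are not given in the sources used here. The deposited tag number per gene is an estimated count without normalization, and the sources do not say if a tag stands for a read or for a pair. The authors also deposited RPKM, which is that number per exon length and library total. Totals were 58166490 to 141045937 tags, and Rn45s took 3.11% of siNC replicate 1 and at most 0.389% of the others.

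Tag numbers were rounded and tested with edgeR 4.0.16 (quasi-likelihood, TMM factors, average logCPM over 0, group only) in R 4.3.3, with Benjamini-Hochberg adjustment over 12505 genes and a call at P below 0.01 and adjusted p below 0.1. SE is the size of the log2 fold change over the root of F. The step was tested on simulated data. No 2 libraries of a group agreed within sampling noise (chi-square per degree of freedom of 36.3 or more). For 3 against 3 libraries the smallest two-sided p of an exact permutation test is 0.1. Alternatives were DESeq2 1.42.0, other scalings, filters and cutoffs, a replicate block and each library left out in turn. Features came from GENCODE M21 transcripts and RefSeq promoters.

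Named were the tested variant genes, replication-dependent genes called, the 5 highest by RPKM, the 3 highest and 3 lowest by fold change, and for each list the called genes with the 5 largest changes plus Slbp, Npat, Asf1b, Chaf1b, Hira and Daxx. Hist1h1d, Hist1h3d, Hist1h3i, Hist2h2bb, other histone genes under the filter, Hist1h4j, Hist1h4k, Hist1h4n, Hist2h3c2, Hist1h2ae and the 3 genes added without the filter were chosen after their values were seen. A chaperone gene and an oligodendrocyte marker are not reported here. The members and lists were chosen with earlier results of these data known. The labels call the libraries biological replicates.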

Additional observations from a re-analysis of the deposited data

How the results depend on the processing

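Of 12 calls, 6 kept their call under all 14 alternatives: H1fx, H2afy2, H2afz, Hist1h1c, Hist1h1e and Hist2h3c1. Over 427 values of the 31 genes, 380 kept direction and call, 25 lost a call and 14 gained one. With each library left out in turn, the number of changed genes was 7 to 12, of higher genes 3 to 5 and of lower genes 4 to 8. These fits called 2478 to 3704 of all genes tested, beside 3879 with all libraries. Library-size scaling alone, which moved the median of all genes from 0.010 to 0.16 and called 4354 of them, gave 7 higher and 5 lower histone genes. It also turned the signs of H3f3a (0.026), H3f3b (0.039), Hist2h2bb (0.036) and Hist3h2ba (0.073). Over the libraries left out in turn, H2afv ran from -0.040 to 0.14, Hist1h4k from -0.55 to 0.037, Hist2h2bb from -0.18 to 0.0014 and Hist3h2ba from -0.16 to 0.038. None of these genes was called in the fit or in the alternative that turned it. The causes were not tested. Of the lists, with libraries left out in turn, 1 to 3 processing, 9 to 13 chaperone and 10 to 15 S phase genes rose, and 7, 19 and 16 did under library-size scaling. Totals over all genes for these alternatives were not split by direction.

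Replicate numbers did not pair the libraries: deviations of same-numbered libraries correlated at -0.050, -0.12 and -0.33. With the number as a block, 12 histone genes were changed, 4 higher and 8 lower, with Hist2h2aa1 lost and Hist1h4i gained, while all genes called went from 3879 to 2796.

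At a mean of at least 1 RPKM in a group, 44 histone genes carried tags, 34 of them replication-dependent, in place of 76 and 63. Thinned to the smallest library, 75 did. With any 1 library left out, mean shares of tags on replication-dependent genes were 519 to 621 CPM in siNC and 399 to 451 in siQk. Those on variants were 1451 to 1473 and 1680 to 1729. Without Rn45s in the totals the means were 582 in siNC and 424 in siQk for replication-dependent genes, and 1478 and 1704 for variants.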
